A study of Mus musculus with 3 samples.

Results

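The metalloprotease genes of PTH-treated osteocytic cells were taken by symbol, as the Mmp, Adam, Adamts and Adamtsl families together with their inhibitors, the tissue inhibitors of metalloproteinases (Timp genes) and Reck. This gave 84 of the 25410 gene symbols listed, with 23 Mmp, 32 Adam, 19 Adamts, 5 Adamtsl and 5 inhibitor genes. RNA-seq was run on total RNA, after removal of ribosomal RNA, from IDG-SW3, a mouse line whose cells mature from an osteoblast to an osteocyte state in culture. There was 1 group of 3 libraries, labelled replicates 1, 2 and 3, of cells at day 35 of differentiation that had received 100 nM parathyroid hormone (PTH) for 24 h. Per the labels, the cells were expanded with interferon-gamma and then kept in osteogenic medium with ascorbic acid and β-glycerol phosphate without it, at 37°C, in collagen-coated wells. All 3 libraries come from the same cell line, and the design text calls the replicates biological. The vehicle-treated libraries named there were not analysed here, so no effect of PTH on any gene was measured. Each gene was set against a fixed level, or against another gene of the same libraries.

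Matrix metalloproteinases (Mmp) are zinc-dependent enzymes that cleave collagens and other matrix proteins, and most are secreted as inactive precursors or anchored in the cell membrane. Adam proteins are membrane-anchored relatives, several of which release growth factors and receptors from the cell surface, whereas Adamts proteins are secreted and cleave proteoglycans and procollagens. Adamtsl proteins resemble Adamts proteins without the protease domain. The Timp proteins bind to the active sites of these enzymes, and Reck is an inhibitor anchored in the membrane. In bone, Mmp13 and Mmp14 are known for the remodelling of matrix by osteoblasts and osteocytes, and Mmp13 is a known target of PTH in osteoblasts.

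The libraries held 35195518 to 45240005 counts. Levels are given as RPKM, reads per kilobase of transcript, scaled by the total count of the library as usual, as mean ± SD over the libraries (n = 3). Each level was tested against 1 RPKM with edgeR's quasi-likelihood test, over all genes with a known length and counts in any library. A gene is called above or below where the adjusted p was under 0.05 and unresolved otherwise. Osteoblast and osteocyte markers summed to 8909 to 10246 RPKM per library, and 6 of 9 were above 1 RPKM. The 6 were Sparc, Ibsp, Col1a1, Bglap, Pdpn and Phex, with Pdpn at 156 ± 27.6 RPKM and Phex at 9.05 ± 0.940 RPKM. Dmp1 and Mepe, which mark osteocytes, were unresolved, and Sost had 2 counts in all. Markers of macrophages and osteoclasts summed to 0.738 to 1.68 RPKM, with none of 7 above. Those of neutrophils summed to 0.455 to 1.57 RPKM, with none of 5 above, and of smooth muscle to 0.555 to 1.54 RPKM, with none of 4 above. Among the other lists, Kdr was the only endothelial marker above of 4, Sox9 the only chondrocyte marker above of 5, and Fabp4 and Adipoq were above of 4 adipocyte markers, with 1 of them above without replicate 3. The sums were 2.86 to 3.27, 3.99 to 6.11 and 9.54 to 16.2 RPKM for these endothelial, chondrocyte and adipocyte lists. Over all genes tested, 43.2% were above 1 RPKM. Acp5, Calcr, Myh11, Smtn, Pecam1 and Plin1 had no counts, but each has several rows in the deposited files. The same holds for Ptprc, with 1 count in replicate 2. Their values are not read as absence of these cell types.

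A few of the genes carried most of the expression. Mmp13, Timp3, Mmp2 and Adamts1, the 4 highest, held 71.8 ± 0.721% of the summed RPKM of all 84 genes (SD, n = 3). Of the 84 genes, 30 were called above 1 RPKM, 23 below and 27 were unresolved, and the other 4 had no counts. The 30 made up 37.5% of the 80 genes tested, against 43.2% of all 20995 genes tested, and the 23 made up 28.8%, against 13.4%. The median level was 0.484 RPKM, beside 0.498 RPKM over all 23031 genes with a known length. The calls above changed little with the library left out, at 28, 29 and 31 without replicates 1, 2 and 3, whereas those below numbered 6, 6 and 21. DESeq2 called 24 of the 80 above and 0 below, against 35.6% and 1.27% of all genes tested. With limma the numbers were 28 and 40, against 42.5% and 45.7%. The calls below, and their share beside all genes, are therefore a weak statement throughout.

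**Figure D1:**
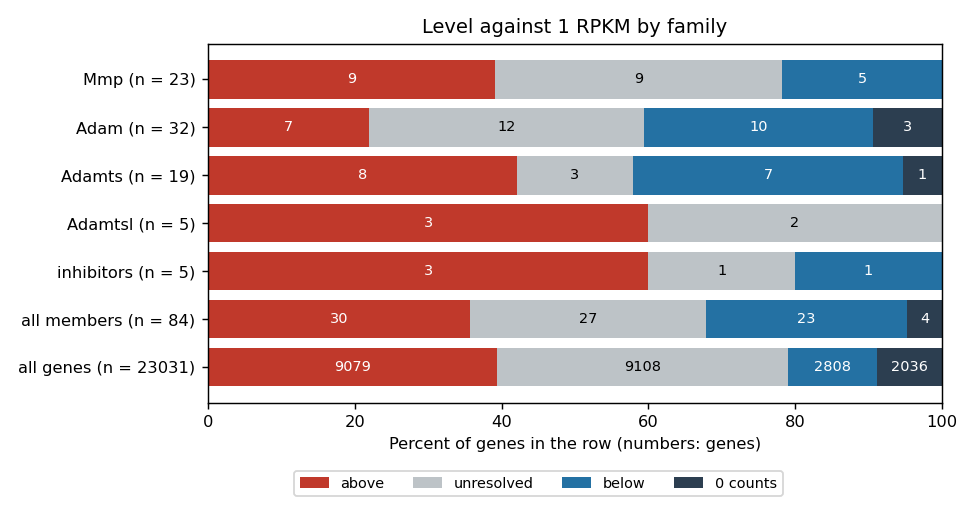
Share of the genes of each family, of all 84 genes and of all genes with a known length that were called above 1 RPKM, were unresolved, were called below or had 0 counts, as percent of the genes in the row, with the number of genes printed in each segment. The Adam row has the smallest share above (7 of 32), and 9 of 23 Mmp and 8 of 19 Adamts genes were above.

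Gene length and the number of rows per symbol limit the values. Of the 84 symbols, 72 had 1 row in the files and 12 had several. Among all symbols with a known length, 31.6% of those with several rows had 0 counts in all libraries, against 5.04% of those with 1 row. The 4 genes with no counts, Adam11, Adam15, Adam33 and Adamts3, had 2 rows each, and a value of 0 is not read as absence for them. A count of 0 allows up to 3 counts per library, which is 0.0300 RPKM for Adam15 and 0.0217 RPKM for Adamts3 in replicate 1, for counting error alone. Of the 72 genes with a single row, 27 lay above and 22 below, beside 45.4% and 12.6% of all tested genes with 1 row.

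Mmp genes were led by the collagenase Mmp13. It stood at 633, 612 and 746 RPKM in replicates 1, 2 and 3 (664 ± 72.1), rank 117 of all genes with a length. Replicate 3 was highest, from 59559, 61058 and 90245 counts. The other genes grouped here with the collagenases were low. Mmp8, known as the neutrophil collagenase, had 3, 42 and 33 counts, Mmp1a had 35, 7 and 0, and Mmp1b had 7, 9 and 31. GENCODE lists Mmp1a as a polymorphic pseudogene, and whether Mmp1a or Mmp1b yields an active collagenase was not tested. The log2 ratio of Mmp13 over Mmp8 was 11.05 ± 1.07, or 9.05 with a pseudocount of 1 RPKM in place of 0.1, so its size rests on the few Mmp8 counts. Mmp8 was called below (edgeR adjusted p = 0.0429), a call that ended on leaving out replicate 1 or 2 (edgeR adjusted p = 0.136 and 0.245). Mmp1a and Mmp1b were unresolved, and as related copies they may have shared or lost reads, which was not tested.

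The gelatinases were far apart as well. Mmp2, which degrades denatured collagen and type IV collagen, stood at 266, 287 and 303 RPKM (285 ± 18.6). Mmp9, the gelatinase known from osteoclasts and neutrophils, stood at 0.313, 0.726 and 0.856 RPKM and was unresolved (edgeR adjusted p = 0.108). Every library had much less Mmp9 than Mmp2, with a log2 ratio of Mmp9 over Mmp2 of −8.69 ± 0.56, a fold of 414 in favour of Mmp2. With a pseudocount of 1 RPKM the log2 ratio was −7.47. The macrophage and osteoclast markers Acp5 and Calcr were listed at 0, but each has several rows.

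Of the 6 membrane-type genes, Mmp14 and Mmp16 were above 1 RPKM. Over all genes tested, 43.2% were above and 13.4% below. Mmp14, which cleaves collagen at the cell surface and activates the Mmp2 precursor, stood at 175, 166 and 179.7 RPKM (174 ± 6.82). Mmp16 followed at 11.1, 12.4 and 14.1 RPKM, 13.8-fold below Mmp14 (log2 ratio of Mmp14 over Mmp16 3.78 ± 0.16). Mmp15, Mmp17 and Mmp24 were called below, with 32, 89 and 68 counts over all libraries. The number below in this set was 1 without replicate 1 or replicate 2, namely Mmp17. Mmp25, with 32 counts, was unresolved. Mmp14 exceeded Mmp15 with a log2 ratio of 10.16 ± 0.51, or 7.37 with a pseudocount of 1 RPKM and 11.76 with 0.01 RPKM. It was 9.45 with a correction for GC content over genes of 1 RPKM or more, an alternative added after the data were seen.

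All 3 stromelysins, a set drawn after the levels were seen, were above 1 RPKM, against 43.2% of all genes tested. Of the stromelysins, Mmp3 and Mmp10 are known to cleave proteoglycans and to activate other Mmp precursors. Mmp3 stood at 53.6, 46.0 and 53.3 RPKM, and Mmp11 at 2.67, 3.47 and 3.52 RPKM. Mmp10 stood at 2.11, 2.32 and 3.74 RPKM, with replicate 3 apart from the others. DESeq2 did not call Mmp10 (adjusted p = 0.147), with the same direction. Mmp3 exceeded Mmp10 18.6-fold, at log2 ratios of 4.60, 4.25 and 3.80.

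Among the other Mmp genes, Mmp23, which encodes a membrane-anchored enzyme of unusual domain structure, stood at 85.8, 65.5 and 72.5 RPKM. Mmp19 stood at 5.80, 3.61 and 5.51 RPKM, with all counts in 1 of its 2 rows. Mmp20, the enamel enzyme, was called below with 45, 10 and 43 counts, and lost the call without replicate 1 or replicate 2. The macrophage elastase Mmp12 was unresolved with 13, 29 and 0 counts, and Mmp27 with 37, 39 and 27. Mmp28 (2 rows), Mmp21 and Mmp7 had 18, 3 and 1 counts in all and were unresolved. For the whole family the number above was 9 without any 1 of the libraries, and the number below was 5, with 1 without replicate 1 or replicate 2. The 9 were 39.1% of the 23 tested, against 43.2% of all genes tested. The 5 below stand beside 13.4% of all genes tested.

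**Figure D2:**
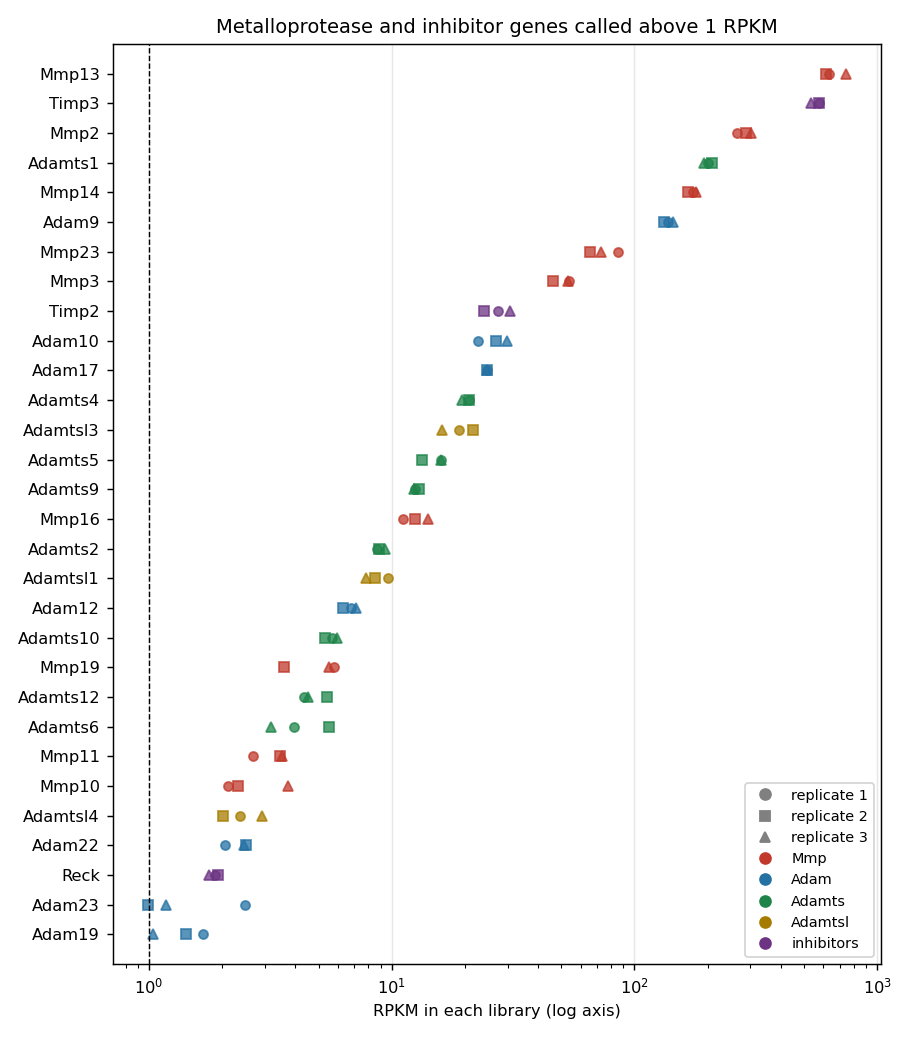
RPKM of the 30 genes called above 1 RPKM in each library, on a log axis, ordered by mean, with the marker shape giving the replicate, the colour the family and the dashed line 1 RPKM. The top 6 genes lie above 100 RPKM in every library, Mmp13 between 612 and 746 RPKM, and Adam23 touches the line in replicate 2 at 0.987 RPKM.

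Levels differed within the Mmp gene cluster of chromosome 9. In RefSeq's annotation of GRCm38.p6, 10 Mmp genes follow each other there with no other protein-coding gene of that table between them, in the order Mmp13, Mmp12, Mmp1b, Mmp3, Mmp1a, Mmp10, Mmp8, Mmp27, Mmp20 and Mmp7. Over all genes tested, 43.2% were above 1 RPKM. In the cluster only Mmp13, Mmp3 and Mmp10 were above, at 664 ± 72.1, 51.0 ± 4.28 and 2.72 ± 0.883 RPKM. The other 7 had mean levels under 1 RPKM, from 0.00837 RPKM for Mmp7 to 0.538 RPKM for Mmp27. The genes directly beside Mmp3, Mmp1b and Mmp1a, had 47 and 42 counts in all, against 10833 for Mmp3.

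**Figure D3:**
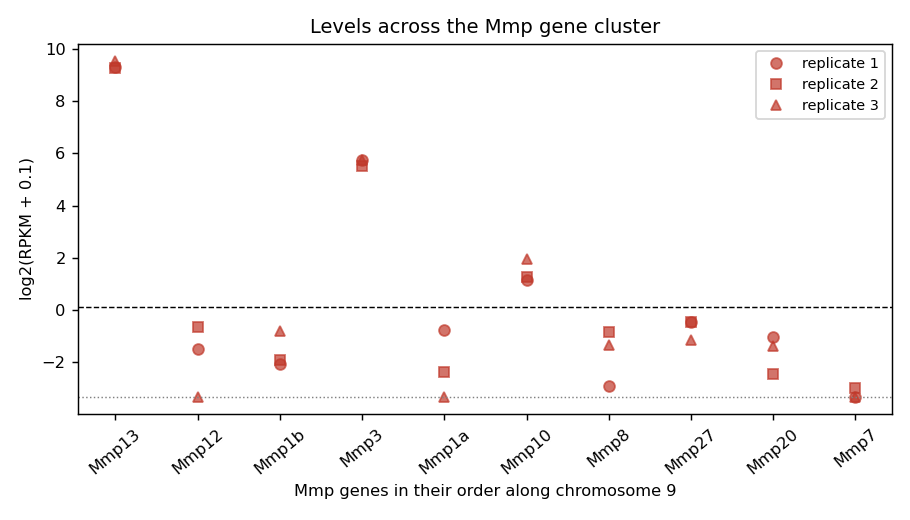
Level of the 10 Mmp genes of the chromosome 9 cluster as log2(RPKM + 0.1) in each library, in their order along the chromosome, with distances not to scale. The dashed line marks 1 RPKM and the dotted line 0 counts, and Mmp13, Mmp3 and Mmp10 lie above the dashed line in all 3 libraries.

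The promoters of the 3 cluster genes called above are shown to give the letters next to the levels, together with those of Mmp14, Timp3 and Adamts1, highly expressed genes from elsewhere in the genome. Each is the 250 bases before the gene's RefSeq start, in build GRCm38.p6, written 5′ to 3′ on the gene's strand. Capitals mark matches on either strand to the AP-1 motif TGACTCA, the Runx motif TGTGGT, the TATA motif TATAAA and the GC box GGGCGG. AP-1 and Runx factors are known regulators of Mmp13 in osteoblasts. RefSeq windows were matched for 53 of the 84 genes.
Mmp13, chr9:7272264-7272513, plus strand: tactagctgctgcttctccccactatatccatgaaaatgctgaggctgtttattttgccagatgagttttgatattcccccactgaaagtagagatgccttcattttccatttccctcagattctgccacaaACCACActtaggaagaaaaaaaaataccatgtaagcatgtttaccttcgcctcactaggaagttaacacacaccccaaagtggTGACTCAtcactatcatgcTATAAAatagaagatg
Mmp3, chr9:7445572-7445821, plus strand: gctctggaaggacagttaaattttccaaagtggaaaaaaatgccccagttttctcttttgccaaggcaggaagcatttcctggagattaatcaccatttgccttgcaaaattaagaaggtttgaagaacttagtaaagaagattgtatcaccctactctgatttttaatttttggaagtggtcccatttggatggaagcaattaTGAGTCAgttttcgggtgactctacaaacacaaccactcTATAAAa
Mmp10, chr9:7502092-7502341, plus strand: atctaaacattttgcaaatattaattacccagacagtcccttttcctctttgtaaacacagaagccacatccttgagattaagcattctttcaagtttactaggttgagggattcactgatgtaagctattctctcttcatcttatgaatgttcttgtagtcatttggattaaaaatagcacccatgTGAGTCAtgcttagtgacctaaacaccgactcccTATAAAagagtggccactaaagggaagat
Mmp14, chr14:54431348-54431597, plus strand: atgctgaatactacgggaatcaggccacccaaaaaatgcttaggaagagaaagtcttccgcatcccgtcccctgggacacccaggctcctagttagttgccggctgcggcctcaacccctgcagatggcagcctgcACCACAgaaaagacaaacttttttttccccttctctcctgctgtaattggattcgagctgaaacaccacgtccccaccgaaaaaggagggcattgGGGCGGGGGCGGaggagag
Timp3, chr10:86300162-86300411, plus strand: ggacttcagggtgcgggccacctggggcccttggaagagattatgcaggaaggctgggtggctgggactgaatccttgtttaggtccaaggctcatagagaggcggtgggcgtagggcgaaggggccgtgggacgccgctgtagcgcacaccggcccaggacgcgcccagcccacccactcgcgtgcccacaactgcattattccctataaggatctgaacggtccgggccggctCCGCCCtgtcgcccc
Adamts1, chr16:85803114-85803363, minus strand: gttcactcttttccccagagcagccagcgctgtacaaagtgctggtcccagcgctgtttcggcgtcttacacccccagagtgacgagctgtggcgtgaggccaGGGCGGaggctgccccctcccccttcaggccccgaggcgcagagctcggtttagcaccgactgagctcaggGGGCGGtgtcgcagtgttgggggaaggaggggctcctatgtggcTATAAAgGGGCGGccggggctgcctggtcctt

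The AP-1 match began 35, 46 and 63 bases before the start of Mmp13, Mmp3 and Mmp10, and the TATA match 16, 7 and 29 bases before it. In Mmp13 a Runx match on the minus strand began 118 bases before the start. In the cluster, 7 of 10 genes held the AP-1 letters in this window, namely Mmp10, Mmp12, Mmp13, Mmp1a, Mmp1b, Mmp3 and Mmp7. Elsewhere 2 of 43 matched genes held them (Adam19 and Adam29), and over all 32851 windows of this length the share was 4.46%. Cluster genes with the AP-1 letters ranged from 0.00837 RPKM for Mmp7 to 664 RPKM for Mmp13, so genes at both ends of the range of levels hold them. The AP-1 and TATA letters together were also in the windows of Mmp1a, Mmp1b and Mmp7, none of which was called above. The cyclic AMP response element, spelled TGACGTCA, was in none of the 58 windows of these genes and in 1.55% of all windows. The other shares over all windows were 14.0% for the Runx letters, 12.4% for the TATA letters and 32.7% for the GC box. In the 58 windows they were 19.0%, 22.4% and 43.1%. No motif of the 5 contains another. Base composition also differed, with 37.2 to 40.4% G or C in the 3 cluster windows and 55.2 to 65.6% in the other 3. A match is a run of letters and not a measured binding site.

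Inhibitor genes were dominated by Timp3. Timp3, the matrix-bound inhibitor that acts on Mmp, Adam and Adamts enzymes, stood at 577, 578 and 535 RPKM (564 ± 24.4) and held 94.8 ± 0.858% of the summed RPKM of the 5 inhibitors. It was second only to Mmp13 among the 84 genes, and the log2 ratio of Mmp13 over Timp3 was 0.23 ± 0.22. Replicate 3 was the highest for Mmp13 and the lowest for Timp3. Timp2, which inhibits Mmp2 and also takes part in its activation by Mmp14, stood at 27.5, 24.0 and 30.8 RPKM. Timp3 exceeded Timp2 20.6-fold, with log2 ratios of 4.39, 4.59 and 4.12. The GC correction over genes of 1 RPKM or more gave a log2 ratio of 3.73.

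The remaining inhibitors were low. Reck stood at 1.87, 1.93 and 1.77 RPKM and was above 1 RPKM (edgeR adjusted p = 7.98e-08), although DESeq2 did not call it (adjusted p = 0.5). Timp1, a soluble inhibitor known from many mesenchymal cells, had 23, 39 and 104 counts, which is 0.762, 1.22 and 2.68 RPKM, and was unresolved (edgeR adjusted p = 0.152). Its spread was among the 3 widest of the genes at 1 RPKM or more, and all of its counts lay in 1 of its 2 rows, so its level is uncertain. Timp4 had 26, 13 and 1 counts and was called below (edgeR adjusted p = 0.0476). Leaving out replicate 1 or 2 ended that call (edgeR adjusted p = 0.285 and 0.212), as did the shortest transcript length (edgeR adjusted p = 0.297).

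Enzyme and inhibitor genes were set side by side in each library. Summed RPKM of the Mmp family was 1238, 1202 and 1384 in replicates 1, 2 and 3, against 608, 605 and 571 for the inhibitors. The Adamts family summed to 278, 286 and 267, the Adam family to 207, 203 and 217, and the Adamtsl family to 31.7, 33.1 and 27.0. Mmp2 exceeded Timp2 10.4-fold (log2 ratio 3.38 ± 0.17) and Mmp14 1.64-fold (log2 ratio 0.71 ± 0.10), in 3 of 3 libraries each. The log2 ratio of Mmp2 over Mmp14 was 0.55 with the shortest transcripts and 0.86 with the longest. With a GC correction over all genes it was 0.89, and that of Mmp2 over Timp2 was 3.70. In bulk RNA, a smaller number of expressing cells and less RNA per cell cannot be told apart, and levels of RNA do not give amounts or activity of the proteins.

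Ratios between genes carry sequence effects that all libraries share. The log2 ratio of Mmp13 over Mmp14 was 1.93 ± 0.11. It became 2.35 with a GC correction over all genes and 1.20 with the one over genes of 1 RPKM or more. The direction was the same in each case.

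**Figure D4:**
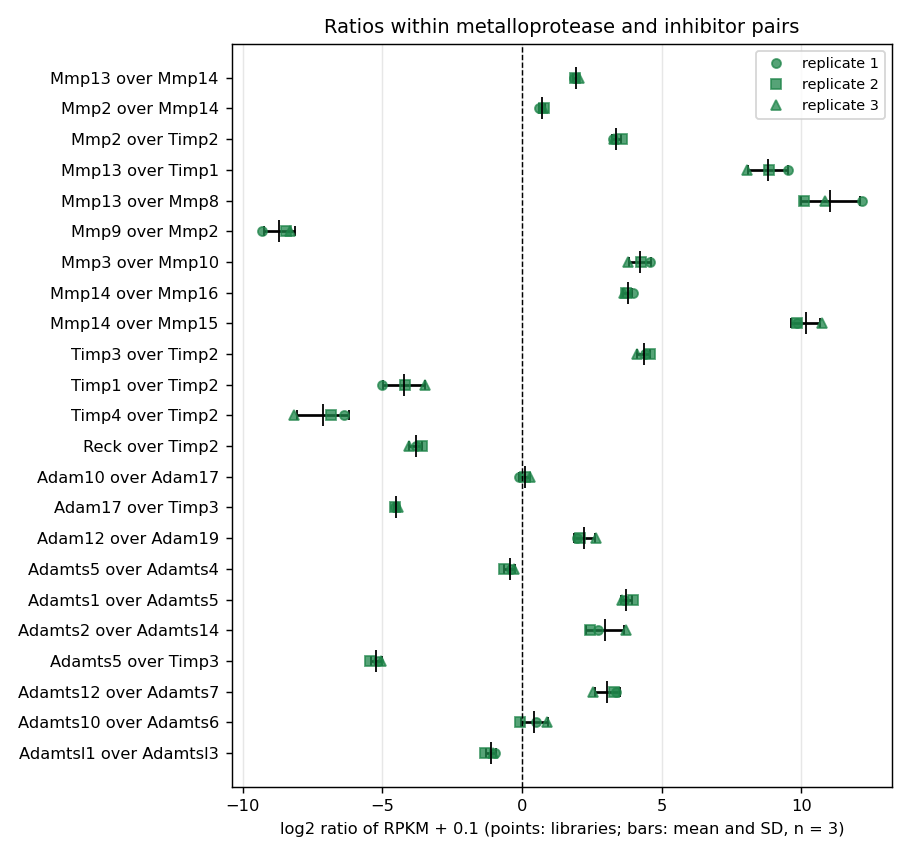
log2 ratio of RPKM + 0.1 for 23 pairs of metalloprotease and inhibitor genes, with a point per library and a bar for the mean and SD (n = 3). The ratios of Adam10 over Adam17 and of Adamts10 over Adamts6 straddle 0, and the other 21 have the same sign in all 3 libraries.

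Adam genes were mostly low, with 7 of 32 above 1 RPKM. The 7 were 24.1% of the 29 tested, against 43.2% of all genes tested. The top gene, Adam9, held 66.0 ± 0.460% of the family's summed RPKM. Adam9, a membrane-anchored protease of many tissues, stood at 137, 133 and 144 RPKM (138 ± 5.56). Adam10 and Adam17, the main sheddases of Notch receptors and of tumour necrosis factor and epidermal growth factor receptor ligands, were both above 1 RPKM. Adam10 stood at 22.7, 26.8 and 29.8 RPKM, and Adam17 at 24.6, 24.7 and 24.6 RPKM. Their log2 ratio, 0.09 ± 0.20, was smaller than its spread and lay on both sides of 0. It was 1.00 with the GC correction over all genes and 0.86 with that over genes of 1 RPKM or more, with Adam10 the higher. It also depended on the transcript lengths taken, at −2.32 with the shortest transcripts, where the shortest listed Adam17 transcript is 834 bases long and the median 4443.

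Adam12 and Adam19, which encode the meltrins, stood apart from each other. Adam12 stood at 6.80, 6.29 and 7.10 RPKM, and Adam19 at 1.66, 1.42 and 1.04 RPKM. Adam12 exceeded Adam19 4.70-fold, with log2 ratios of 1.97, 2.08 and 2.66. Adam19 was above 1 RPKM (edgeR adjusted p = 0.00857), and leaving out replicate 1 or 2 ended this call (edgeR adjusted p = 0.245 and 0.0631), as did DESeq2 (0.722) and limma (0.151). The adhesion proteins without protease activity had 2 of 3 genes above, against 43.2% of all genes tested. Adam22 stood at 2.05, 2.52 and 2.47 RPKM, with all counts in 1 of 3 rows, and Adam23 at 2.47, 0.987 and 1.17 RPKM. The Adam23 call (edgeR adjusted p = 0.001) was lost without replicate 1 (0.649), the library in which it was high, and with DESeq2 (0.619) and limma (0.153). DESeq2 did not call Adam22 either. Adam11, the third, was among the genes with no counts. Adam8, known from leukocytes and osteoclasts, was unresolved at 78, 78 and 81 counts, and Adam28 (3 rows) had 9 counts in all.

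The 20 Adam genes known mainly from testis and the male reproductive tract had mean levels of 0.0740 to 1.01 RPKM. None was above 1 RPKM, against 43.2% of all genes tested, 10 were called below, against 13.4%, and 10 were unresolved. Those below were Adam1b, Adam6a, Adam7, Adam21, Adam24, Adam25, Adam26a, Adam26b, Adam29 and Adam30. The number below was 1 without replicate 1, 0 without replicate 2 and 8 without replicate 3. The unresolved genes were Adam1a, Adam2, Adam3, Adam4, Adam5, Adam6b, Adam18, Adam32, Adam34 and Adam39. The highest were Adam1a, with 122, 126 and 260 counts, and Adam5, with 68, 71 and 125. Counts were uneven between libraries for several, such as 72, 28 and 0 for Adam32 and 1, 31 and 18 for Adam34. The whole set summed to 8.80, 6.72 and 6.59 RPKM in replicates 1, 2 and 3. Male germ cell markers summed to 0.966 to 2.25 RPKM, with none of 6 above, and Ddx4, which had no counts, has several rows. Several of these Adam genes are near-identical copies of each other, so reads could have been split or lost between them.

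Adam9 lies beside such genes. In the RefSeq order on chromosome 8, Adam18, Adam3, Adam5, Adam32 and Adam9 follow each other. Adam9 had 64920 counts over the libraries, while its neighbour Adam32 had 72, 28 and 0 counts, Adam18 had 9, 10 and 0, and Adam3 had 20, 7 and 10. All 4 neighbours were unresolved at mean levels of 0.0740 to 0.859 RPKM.

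**Figure D5:**
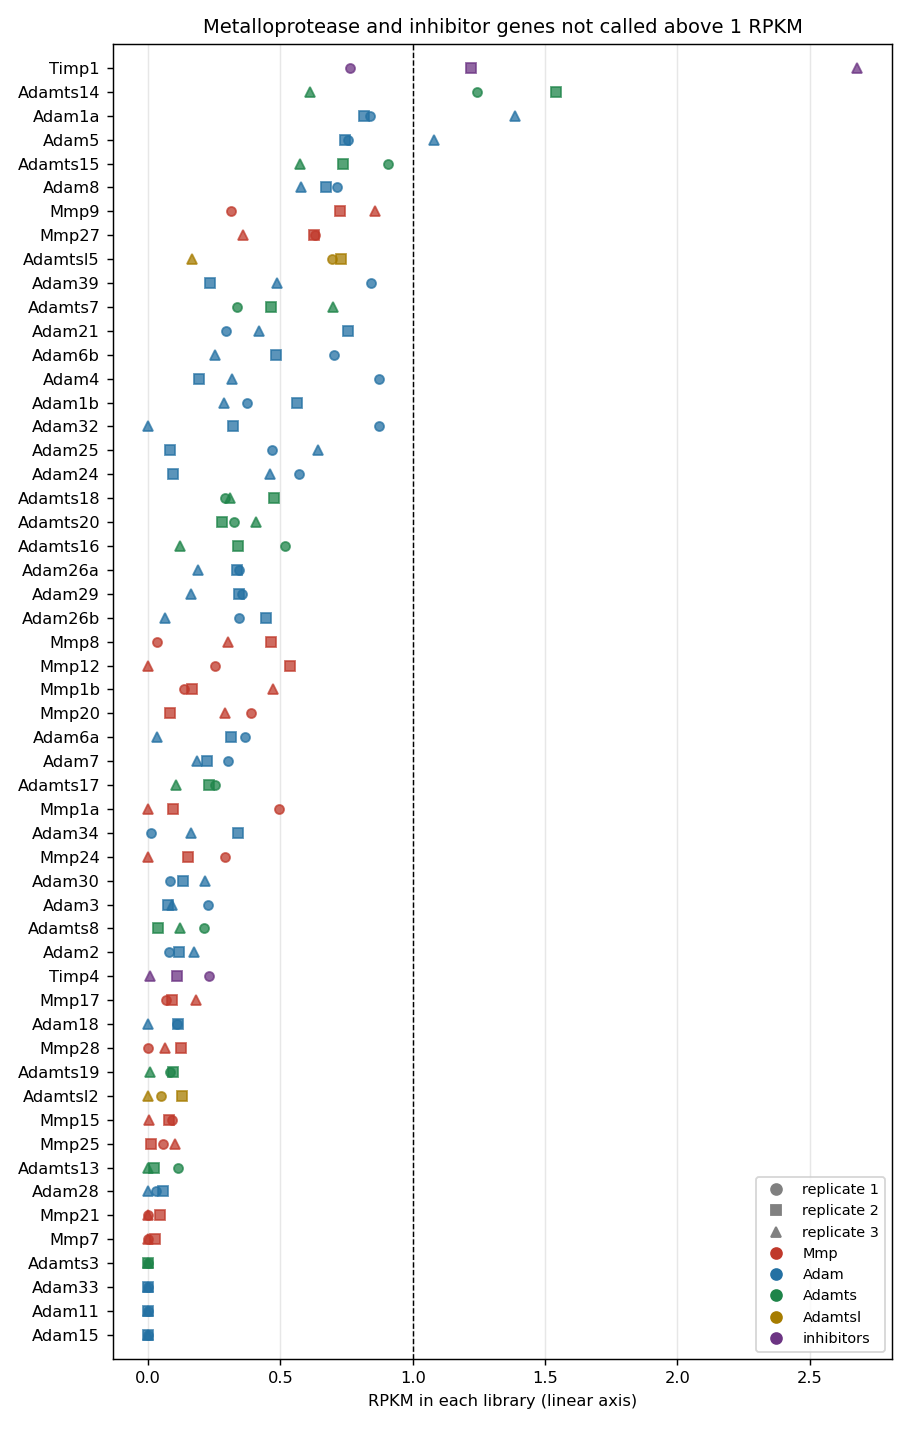
RPKM of the 54 genes not called above 1 RPKM in each library, on a linear axis, ordered by mean, with the marker shape giving the replicate, the colour the family and the dashed line 1 RPKM. Only Timp1, Adamts14, Adam1a and Adam5 reach past the line in any library, and the 4 genes at the bottom had no counts.

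Adamts genes were led by Adamts1, which cleaves versican and aggrecan and is a known early response gene to PTH in bone. It stood at 202, 209 and 193 RPKM (201 ± 8.20) and held 72.7 ± 0.479% of the family's summed RPKM. Of the 7 proteoglycan-cleaving genes, 4 were above, beside 43.2% above and 13.4% below of all genes tested. The aggrecanases Adamts4 and Adamts5 stood at 20.9, 20.9 and 19.4 RPKM and at 16.0, 13.3 and 15.9 RPKM. Adamts4 was higher in every library, with a log2 ratio of Adamts5 over Adamts4 of −0.44 ± 0.19. The ratio was −0.75 with the GC correction over all genes and −1.27 with that over genes of 1 RPKM or more. Adamts9 stood at 12.5, 12.9 and 12.3 RPKM. Adamts15 was unresolved at 0.739 ± 0.166 RPKM. Adamts20 (3 rows) and Adamts8 were called below at 0.337 ± 0.0654 and 0.123 ± 0.0872 RPKM, and the number below was 1 without replicate 1 or replicate 2, namely Adamts20. Adamts1 and Adamts5, neighbours on chromosome 16, differed 13.3-fold in favour of Adamts1 (log2 ratio 3.74 ± 0.20).

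Procollagen N-proteinases remove the amino-terminal propeptide of fibrillar collagens. Adamts2 stood at 8.73, 8.84 and 9.34 RPKM. Adamts14 stood at 1.24, 1.54 and 0.611 RPKM and was unresolved, but was called above without replicate 3 (edgeR adjusted p = 0.0385), where it was lowest. Adamts2 exceeded Adamts14 7.81-fold, with log2 ratios of 2.72, 2.45 and 3.73. It became 2.25 on the log2 scale at a pseudocount of 1 RPKM and 2.04 with the GC correction over genes of 1 RPKM or more. For Adamts3, with 2 rows and no counts, no ratio is given.

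Of the pair that cleaves cartilage oligomeric matrix protein, Adamts12 was above at 4.36, 5.39 and 4.54 RPKM. Adamts7 was called below at 0.338, 0.462 and 0.699 RPKM (edgeR adjusted p = 0.00509), a call lost without replicate 1 (0.0692). Adamts12 exceeded Adamts7 8.33-fold, with log2 ratios of 3.35, 3.29 and 2.54. A pseudocount of 1 RPKM gave a log2 ratio of 1.95, and the GC correction over genes of 1 RPKM or more gave 2.20. Comp itself, the substrate gene, stood at 49.9 ± 10.9 RPKM.

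Adamts10 and Adamts6, a pair linked to fibrillin microfibrils, were both above, at 5.68, 5.30 and 5.95 RPKM and at 3.97, 5.51 and 3.18 RPKM. Their order was not settled, since the log2 ratio of Adamts10 over Adamts6 was 0.44 ± 0.47, with replicate 2 on the other side of 0. It was 1.72 with the shortest transcripts and 1.60 with the GC correction over genes of 1 RPKM or more. Adamts16, Adamts17, Adamts18 and Adamts19 were called below, at mean levels of 0.0617 to 0.359 RPKM. The first 3 were called below with each library left out in turn, and Adamts19 not without replicate 1 or replicate 2. Adamts13, the von Willebrand factor protease, had 16, 3 and 0 counts and was unresolved. For the whole family, 8 were above and 7 below, with 4 and 5 below without replicates 1 and 2. The 8 were 44.4% of the 18 tested, against 43.2% of all genes tested. The 7 below stand beside 13.4% of all genes tested.

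Adamtsl genes had 3 of 5 members above 1 RPKM, which is 60%, against 43.2% of all genes tested. Adamtsl3 stood at 19.0, 21.6 and 16.1 RPKM and Adamtsl1 at 9.61, 8.55 and 7.85 RPKM. Adamtsl3 was higher in 3 of 3 libraries, with a log2 ratio of Adamtsl1 over Adamtsl3 of −1.11 ± 0.19, but with the shortest transcripts the ratio was 0.13. Adamtsl4, which encodes a microfibril-associated protein, stood at 2.36, 2.02 and 2.92 RPKM, and DESeq2 did not call it (adjusted p = 0.238). Adamtsl5 (2 rows) and Adamtsl2 had 36, 40 and 11 and 6, 17 and 0 counts and were unresolved.

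The order of levels was the same in all libraries for some neighbours only. Among the 20 genes of at least 5 RPKM, 14 of 19 neighbouring pairs in the order did not overlap in range. This covers the spread between libraries only, since effects of length and GC content are shared by all libraries. For Adamtsl3 over Adamts5, a pair without overlap, the log2 ratio was 0.32 ± 0.35, smaller than its spread. The 5 neighbours that did overlap were Timp2 and Adam10, Adam10 and Adam17, Adamts4 and Adamtsl3, Adamts9 and Mmp16, and Adamts2 and Adamtsl1. The spread of these 20 genes between libraries, as SD of log2(RPKM + 0.1), had a median of 0.09 and ran from 0.004 for Adam17 to 0.21 for Adamtsl3. Over all 6419 genes of at least 5 RPKM the median was 0.14, but these were not matched for level with the 20. Spread was wider at low levels, with a median of 0.62 over all genes under 1 RPKM with counts.

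Genes that act with these enzymes were taken as lists. The counts of these lists stand beside 43.2% above and 13.4% below of all 20995 genes tested. Among proprotein convertases, which cut the precursors of many Mmp and Adam proteins, 1 of 9 was above 1 RPKM, Pcsk7 at 8.17 ± 0.640 RPKM. Pcsk6 was unresolved at 1.27 ± 0.411 RPKM and was called above without replicate 3. Pcsk5 was called below at 0.302 ± 0.121 RPKM. Of this list 3 were below, against 2, 1 and 3 without replicates 1, 2 and 3. Furin, the best known of them, had no counts, but has 2 rows. Of the plasminogen system, which also activates Mmp precursors, 5 of 8 were above. The inhibitor gene Serpine2 stood at 251 ± 24.4 RPKM, the activator genes Plat and Plau at 166 ± 13.0 and 49.8 ± 1.71 RPKM, and plasminogen (Plg) itself was unresolved with 25, 4 and 14 counts.

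Of the partners that carry Adam10 or Adam17 to the cell surface, 5 of 9 were above and 4 were unresolved. Tspan5, Tspan17 and Tspan14 stood at 15.3 ± 2.15, 7.28 ± 1.72 and 6.74 ± 0.752 RPKM. Of the membrane proteins that such enzymes shed, 11 of 14 were above and 3 were unresolved. Sdc4 stood at 989 ± 145 RPKM, Kitl at 169 ± 10.1 and Tnfsf11, which encodes RANKL, at 120.2 ± 6.14.

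Of 12 matrix substrates, 7 were above and 4 below, with 1 below without replicate 1 and 2 below without replicate 2. Col1a2, Col3a1 and Col1a1 stood highest, at 2946 ± 90.4, 1657 ± 43.4 and 488 ± 42.5 RPKM. The aggrecanase substrate gene Acan was called below at 0.687 ± 0.0818 RPKM, a call that also ended on leaving out either of these libraries. Of 11 other metalloproteases, 7 were above and 1, Mep1a, was below, a call lost with any library left out. Mme (neprilysin), Pappa and Tll1 stood at 80.8 ± 6.11, 28.5 ± 1.31 and 13.2 ± 1.81 RPKM. Of 11 other inhibitors and clearance receptors, 5 were above and 2 below, with 1 below without replicate 2. Thbs2 and the clearance receptor gene Lrp1 stood at 639 ± 17.4 and 521 ± 55.2 RPKM, and Thbs1 at 129.5 ± 7.57 RPKM.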

How the data were processed

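Each deposited file has 30795 rows, with a gene symbol and a whole number. The authors' file names say RPKM, but the values were read as raw counts, since they are whole numbers that sum to 35195518, 37299517 and 45240005 in the deposited files. Per the submitters' processing notes, TopHat and build mm9 were used; the counting tool, the annotation and the strand setting were not given in the sources used. Rows were summed per symbol. RPKM was computed from the count, the median length of the gene's basic transcripts in GENCODE M21 (GRCm38; 23031 symbols and all 84 genes matched) and the library total. The level of every gene above 0 in at least 1 library was set against 1 RPKM in a two-sided test with edgeR 4.0.16 (R 4.3.3), using trended dispersion, robust estimation and a Poisson bound on p. Adjustment was by Benjamini-Hochberg over all 20995 genes tested. DESeq2 1.42.0 and limma 3.58.1, on log2(RPKM + 0.1), were alternatives. Ratios between genes are differences of log2(RPKM + 0.1), given with their spread; no test was run on them. The genes, pairs and lists were chosen with earlier results of these data known, and the division into roles after the levels were seen. Named genes were those of the pairs, the inhibitors, genes of at least 5 RPKM, the top 3 of each family and of those not called above, the 3 with the widest spread and the top 3 of each list. Other genes are named to account for every member or call, after their values were seen. Without molecular identifiers, reads may be copies of 1 molecule, so limits from 0 counts cover counting error only. No library was a duplicate of another: their counts differed far beyond counting error, with a chi-square per degree of freedom of 26.3 to 41.6.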

Additional observations from a re-analysis of the deposited data

How the results depend on the processing

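No paired analysis was possible because the libraries form 1 group. Calls above 1 RPKM were the stable part, with 24 of 30 made under every alternative at that level that held the gene, and 28 to 31 with a library left out. Calls below were not, at 23 against 0 with DESeq2, 40 with limma, 45 at a fixed level of 2 RPKM, 2 at 0.5 RPKM and 6 to 21 with a library left out. The Mmp count below was 0 with DESeq2, 12 with limma and at 2 RPKM, 1 at 0.5 RPKM and 1 to 5 with a library left out. The Adam count below was 0 with DESeq2 and at 0.5 RPKM, 18 with limma, 21 at 2 RPKM, 6 with at least 10 summed counts and 0 to 8 with a library left out, and the count above was 4 with DESeq2 and at 2 RPKM and 5 to 7 with a library left out. The Adamts count below was 0 with DESeq2, 1 at 0.5 RPKM and 4 to 7 with a library left out, and that above 8 to 9. The Adamtsl count below was 1 with limma and 2 at 2 RPKM. The inhibitor count below, 1, was 0 with the shortest lengths, at least 10 counts, symbols with 1 row only, DESeq2 and 0.5 RPKM, and 0 to 1 with a library left out.

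Directions turned for a few genes near the level. At 2 RPKM the log2 level was −0.54 for Adam19, −0.98 for Adam1a, −0.38 for Adam23, −0.82 for Adamts14, −0.11 for Reck and −0.36 for Timp1. At 0.5 RPKM it was 0.78 for Adam5, 0.38 for Adam8, 0.56 for Adamts15, 0.00014 for Adamts7, 0.071 for Adamtsl5, 0.10 for Mmp27 and 0.34 for Mmp9. With the longest transcripts it was −0.19 for Adam1a and −0.058 for Adamts14, with limma −0.020 for Adam1a, and with the mean over rows −0.38 for Adam23 and −0.34 for Timp1. With a library left out it ran from −0.28 to 0.16 for Adam1a and from −0.019 to 0.96 for Timp1, lowest without replicate 3, and from −0.12 without replicate 2 to 0.48 for Adamts14. Among ratios, Adam10 over Adam17 was −2.32 with the shortest transcripts and −0.0015 (without replicate 3) to 0.20 with a library left out, Adamts10 over Adamts6 −0.023 with the longest, and Adamtsl1 over Adamtsl3 0.13 with the shortest. Apart from where a new level, another transcript length or a division by rows turns the sign by construction, the cause was not tested.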
